A study of Mus musculus with 12 samples.

Results

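The cytosolic heat shock chaperones described here are 9 genes: the inducible HSP70 pair Hspa1a and Hspa1b, the constitutive HSP70 Hspa8, the HSP90 isoforms Hsp90aa1 and Hsp90ab1, the J-domain protein Dnajb1, the HSP110 protein Hsph1, the small heat shock protein Hspb1 and the transcription factor Hsf1. They were chosen by symbol, and each of the 9 matched 1 of the 56748 genes in the table: ENSMUSG00000091971 (Hspa1a), ENSMUSG00000090877 (Hspa1b), ENSMUSG00000015656 (Hspa8), ENSMUSG00000021270 (Hsp90aa1), ENSMUSG00000023944 (Hsp90ab1), ENSMUSG00000005483 (Dnajb1), ENSMUSG00000029657 (Hsph1), ENSMUSG00000004951 (Hspb1) and ENSMUSG00000022556 (Hsf1). RNA came from the retinas of mice 2 weeks old. In these mice the rhodopsin-promoter Cre line i75-Rod-Cre switches on an HA tag on the ribosomal protein Rpl22 (RiboTag) and recombines a floxed Shp2 gene (symbol Ptpn11) in rods. Control mice carried 1 floxed Shp2 allele (RiboTag, Shp2 fl/+, Cre; called Het here, although the sample titles say wt), and knockout mice carried 2 (RiboTag, Shp2 fl/fl, Cre; KO). Both groups therefore carried the Cre and the tagged ribosome, and the Het rods also carry a Shp2 allele that the Cre can delete. From each genotype, 3 libraries were made of whole-retina RNA and 3 of rod RNA bound to the tagged ribosomes (translating ribosome affinity purification, TRAP), which gave 12 libraries in all. Whole retina holds all retinal cell types, whereas the rhodopsin promoter drives the Cre in rods. No record says whether the 3 libraries of a group came from separate mice, so p-values measure the spread between these libraries, which may be technical.

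Heat shock proteins are chaperones that keep other proteins folded. HSP70 binds exposed stretches of unfolded protein in a cycle driven by ATP. J-domain proteins such as Dnajb1 deliver the client and start ATP hydrolysis, and HSP110 proteins such as Hsph1 exchange the nucleotide and release the client. HSP90 then takes over many kinases and receptors for their last folding steps, and small heat shock proteins such as Hspb1 hold unfolded proteins without ATP. Hsf1, the heat shock factor, is held inactive by these chaperones and, when freed by stress, binds inverted GAA repeats in their promoters and raises their transcription. Rods make large amounts of rhodopsin and renew their outer segments continuously, which makes the supply of chaperones of general interest in this cell.

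The inverted GAA repeats that Hsf1 recognises were looked for in the 250 bases before the annotated start of each gene, and the promoters are shown because the inducible members share this route of control. RefSeq promoters (build GRCm38.p6) were found for 5 of the 9 genes, Hspa1a, Hspa1b, Dnajb1, Hsph1 and Hspb1, and no sequence is given for Hspa8, Hsp90aa1, Hsp90ab1 and Hsf1. Capitals mark the 2-unit repeats GAANNTTC and TTCNNGAA, each of which reads the same on both strands. The Hspa1a promoter lies at chr17:34972157-34972406 on the minus strand and the Hspa1b promoter at chr17:34959239-34959488 on the minus strand. The Hspb1 promoter lies at chr5:135887669-135887918 on the plus strand, the Hsph1 promoter at chr5:149636337-149636586 on the minus strand and the Dnajb1 promoter at chr8:83607925-83608174 on the plus strand.
Hspa1a: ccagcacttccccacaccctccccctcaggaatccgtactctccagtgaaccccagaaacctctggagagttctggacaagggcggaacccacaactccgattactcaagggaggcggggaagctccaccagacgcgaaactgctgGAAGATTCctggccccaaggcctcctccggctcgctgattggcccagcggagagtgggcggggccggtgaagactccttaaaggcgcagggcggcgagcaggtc
Hspa1b: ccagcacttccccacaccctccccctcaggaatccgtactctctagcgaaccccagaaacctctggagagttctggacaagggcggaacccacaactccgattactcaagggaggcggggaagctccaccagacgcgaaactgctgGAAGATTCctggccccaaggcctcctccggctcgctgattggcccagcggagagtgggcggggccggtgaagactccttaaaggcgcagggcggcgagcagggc
Hspb1: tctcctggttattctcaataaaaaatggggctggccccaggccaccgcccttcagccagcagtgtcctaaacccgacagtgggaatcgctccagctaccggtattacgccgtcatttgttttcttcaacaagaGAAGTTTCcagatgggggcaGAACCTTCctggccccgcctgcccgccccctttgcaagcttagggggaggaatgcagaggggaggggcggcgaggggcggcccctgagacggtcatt
Hsph1: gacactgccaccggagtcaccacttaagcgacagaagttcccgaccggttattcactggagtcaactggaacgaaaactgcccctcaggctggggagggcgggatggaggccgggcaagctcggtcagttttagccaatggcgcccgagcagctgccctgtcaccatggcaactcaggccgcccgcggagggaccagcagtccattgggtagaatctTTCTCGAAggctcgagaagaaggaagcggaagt
Dnajb1: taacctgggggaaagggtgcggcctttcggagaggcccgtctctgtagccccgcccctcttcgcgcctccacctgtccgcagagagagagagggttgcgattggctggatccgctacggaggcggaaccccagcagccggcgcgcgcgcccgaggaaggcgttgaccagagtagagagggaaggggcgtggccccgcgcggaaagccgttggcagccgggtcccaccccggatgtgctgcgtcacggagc

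The Hspa1a and Hspa1b promoters differed at 3 of 250 positions, and both held GAANNTTC beginning 104 bases before the start. Hspb1 held the same repeat at 117 and at 97 bases, Hsph1 held TTCNNGAA at 33 bases, and Dnajb1 held neither in this window. Of 27025 mouse promoters of the same length, 6.79% held GAANNTTC, 7.18% held TTCNNGAA and 13% held at least 1 of them, and a 3-unit form, either motif with 1 more unit in turn, stood in 0.403% and in none of the 5 promoters. These matches are letters in a window, not measured binding.

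The deposited values were whole numbers that the authors had already scaled to nearly equal totals, between 14525527 and 14527992 in the retina libraries and between 16263948 and 16265259 in the rod libraries. From the spacing of low values, the depth was estimated as between 9980000 and 19230000 reads in 5 of the retina libraries, with the remaining one not fixed, and between 11890000 and 25280000 reads in the 6 rod libraries. Values below are rescaled by trimmed-mean (TMM) factors over all 12 libraries, in units of the deposited table (scaled value), and log2 differences are on log2(scaled value + 2), which understates the change of low genes. A gene was called at an adjusted p below 0.05 with an absolute log2 difference above 0.5, by limma with Benjamini-Hochberg adjustment over every gene tested. The rod fraction matched its label: rod markers made up 16.7% to 20.4% of the rod totals against 5.48% to 7.28% of the retina totals, and Müller glia markers 0.0103% to 0.0191% against 0.332% to 0.481%. Lens markers, summed over 12 genes, made up 0.00104% to 5.51% of the retina totals and at most 0.0883% of the rod totals, with the highest share in KO retina replicate 3. The deleted gene, Ptpn11, had scaled values of 2030, 2530 and 2260 in the KO rod libraries, below the 2780, 2720 and 2720 of the Het ones, groups that did not overlap, although the difference of -0.26 ± 0.09 (SE) on the log2 scale had an adjusted p of 0.056 and was not called. The table does not separate the deleted exons from the rest of the gene.

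The most abundant members were the HSP90 and constitutive HSP70 genes, with Hsp90aa1 first in every group. Per kilobase of the median annotated transcript, Hsp90aa1 stood at 139000 in Het rods and 37100 in Het retina, Hsp90ab1 at 15100 and 15200, and Hspa8 at 14400 and 7880. Annotated fragments make the median transcript of both HSP90 genes short (711 bases for Hsp90aa1 and 614 for Hsp90ab1), so the longest transcript gives another picture: 30200 in Het rods for Hsp90aa1, 12100 for Hspa8 and 3680 for Hsp90ab1, with Hspa8 above Hsp90ab1. Hsph1 (783 per kilobase of the median transcript) and Dnajb1 (611) followed in Het rods, then Hspa1b (183), Hspa1a (141) and Hsf1 (127), and Hspb1 was last at 3.24. In Het rods the ranges of Hsp90ab1 and Hspa8, of Hsph1 and Dnajb1, of Hspa1b and Hspa1a and of Hspa1a and Hsf1 overlapped, so these neighbours did not differ beyond the spread of 3 libraries. The inducible pair was thus near Hsf1 in level in Het rods and far below the constitutive Hspa8. In KO rods Dnajb1 (869) stood above Hsph1 (687) and Hsf1 (185) above Hspa1a (172), again with overlapping ranges, while Hspa1b (322) lay above both Hsf1 and Hspa1a. In Het retina Hsf1 (146) was above Hspa1b (55.6) and Hspa1a (45.1), with its range apart from that of Hspa1b, and in KO retina the values were 162, 68.7 and 40.7. Hspb1 was last in both rod groups, and its place in the retina (192 in Het and 639 in KO) rested on 1 library per genotype.

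**Figure D1:**
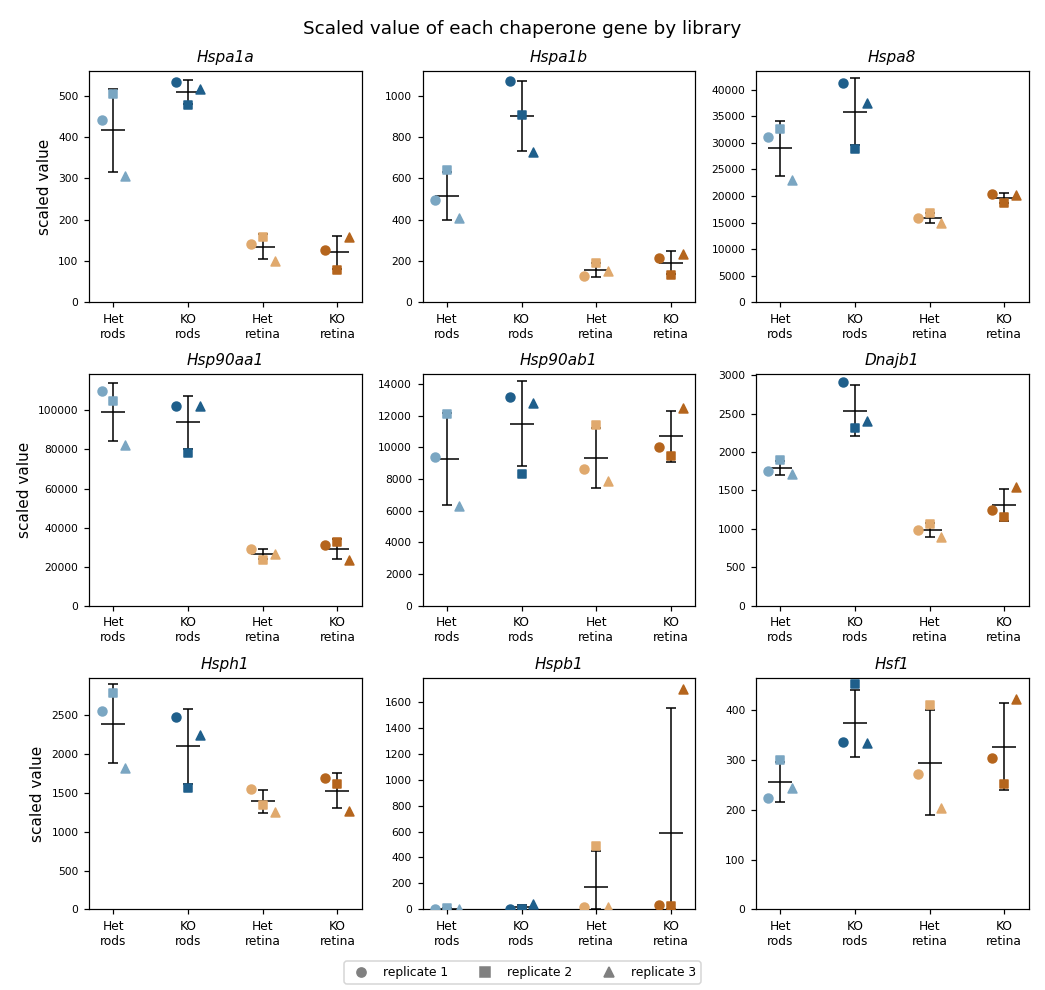
Scaled value of each of the 9 genes (vertical axis, starting at 0) in the 12 libraries, by group. Points are libraries, with the shape giving the replicate number, and the bar and whiskers give the mean ± SD of 3; the rod groups stand above the retina groups for Hspa1a, Hspa1b, Hspa8, Hsp90aa1 and Dnajb1, and Hspb1 is high in Het retina replicate 2 and KO retina replicate 3.

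Rod TRAP was first compared with whole retina in the Het mice, which asks how much of each chaperone's message lies in the rod fraction. Of the 9 genes, 6 were higher in rods and 1, Hspb1, was lower, while Hsp90ab1 and Hsf1 passed no test. Hspb1 had scaled values of 0, 7.8 and 1.12 in Het rods and of 16.4, 490 and 20.5 in Het retina. It passed the filter on low values only through the retina libraries, so a higher call in rods was not open to it. Of all 15917 genes tested, 26.5% were higher and 34.7% lower. The groups did not overlap for 7 of the 9 genes, and did not overlap for 69.7% of all genes. The median log2 difference was 0.85 for the 9 genes and 0.013 for all genes tested. A higher share can come from more rod message or from less message of other cells, and in bulk samples a different number of cells and a different amount of RNA per cell cannot be told apart. The rod libraries hold RNA pulled down with ribosomes and the retina libraries whole RNA. Ribosome binding and the pulldown therefore cannot be told apart from cell type either.

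The inducible HSP70 genes stood apart between fractions. Hspa1a had scaled values of 442, 504 and 306 in Het rods and of 142, 159 and 100 in Het retina, so every rod library was above every retina library. The difference was 1.63 ± 0.24 (SE) on the log2 scale, a fold of 3.09 (limma, adjusted p = 0.000299). Hspa1b had 495, 639 and 408 in Het rods and 126, 191 and 151 in Het retina, again with no overlap, a log2 difference of 1.71 ± 0.22 (limma, adjusted p = 0.000114). The 2 genes encode nearly the same protein and are hard to tell apart in short reads: 52.7% of the 75-base stretches of the longest Hspa1a transcript also occur in Hspa1b, and the 2 transcripts are identical at 91.4% of aligned positions. How reads that fit both were counted is not given in the sources used here, so the level of each alone is uncertain. Once the GC trend was removed the differences were larger, 2.49 for Hspa1a and 2.47 for Hspa1b, with a median over all genes of 0.32. Summed into 1 feature, without that removal, the pair was higher in Het rods by 1.67 (limma, adjusted p = 7.83e-05).

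Hsp90aa1, the stress-responsive HSP90 isoform, was higher in Het rods by 1.91 ± 0.15, a fold of 3.75 (limma, adjusted p = 4.73e-06). This was the largest rise of the 9 genes, but with the GC trend removed Hspa1a and Hspa1b lay above it (1.98 for Hsp90aa1). It stood at 110000, 105000 and 82200 in Het rods against 28900, 23600 and 26500 in Het retina. Hsp90ab1, the isoform expressed steadily in most cells, had 9380, 12100 and 6300 in Het rods and 8610, 11400 and 7880 in Het retina. These groups overlapped, and the difference of -0.04 ± 0.23 had an adjusted p of 0.901. The ratio of deposited values of Hsp90aa1 to Hsp90ab1 was accordingly 11.7, 8.71 and 13 in the 3 Het rod libraries and 3.36, 2.06 and 3.36 in Het retina, with no overlap (exact two-sided permutation p = 0.1, the smallest that 3 against 3 libraries allow). Of the 75-base stretches of Hsp90aa1, 45% also occur in the pseudogene Gm12346, whose reads it may share.

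Hspa8, the constitutive HSP70, had 31200, 32700 and 23100 in Het rods and 15900, 16800 and 15000 in Het retina. It was higher in rods by 0.85 ± 0.15 (limma, adjusted p = 0.000797), in every library. The pseudogene Gm15459 holds 64.3% of its 75-base stretches, so its level is uncertain too. Dnajb1, the main J-domain partner of the inducible HSP70 proteins, was higher by 0.87 ± 0.12 (limma, adjusted p = 0.000213), with 1750, 1890 and 1720 in Het rods against 986, 1070 and 894 in Het retina. Hsph1 was higher by 0.77 ± 0.17 (adjusted p = 0.00373), with 2560, 2790 and 1820 against 1550, 1340 and 1260. The Dnajb1, Hsph1 and Hsf1 transcripts share no 75-base stretch with another gene.

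Hsf1, the regulator, was not called between the Het fractions. It stood at 224, 301 and 244 in Het rods against 273, 410 and 203 in Het retina, groups that overlapped, and the difference of -0.15 ± 0.25 had an adjusted p of 0.62. This value turned with the treatment of GC content: with the trend of each library with transcript GC content removed, Hsf1 was higher in Het rods by 0.57 (limma, adjusted p = 0.000752). Its adjusted p ran from 0.000529 to 0.876 over the alternatives. Removing the GC trend also moved the median of all genes, to 0.32 in the Het and 0.34 in the KO comparison of rods with retina, so values given with the trend removed stand beside those medians. Hsf1 has 57.8% GC, at the border of the 10% of genes with the highest GC content, which begins at 57.8% among genes of the retina and 57.6% among those of the rods.

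Scaling by library total alone, without TMM factors, lowered the log2 differences between rods and retina by a median of 0.51 (0.55 in the KO mice) and left Hspa1a (1.12), Hspa1b (1.2) and Hsp90aa1 (1.39) called higher, but not Hspa8 (0.34), Dnajb1 (0.35) or Hsph1 (0.26). The calls of those last genes therefore depend on the scaling. Under total scaling, of the genes called, 13.6% were higher in Het rods, against 43.3% with TMM factors and 56.7% with the GC trend removed.

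The same comparison in the KO mice shares no library with the Het one. There 5 of the 9 genes were higher and 0 lower, beside 27.1% and 35.1% of 15858 genes tested, and the groups did not overlap for 5 of the 9 genes and for 72.3% of all genes. The median log2 difference of the 9 genes was 0.84. Hspa1a was higher by 2.1 ± 0.25 and Hspa1b by 2.24 ± 0.24 (limma, adjusted p = 8.73e-05 and 5.49e-05). Hsp90aa1 was higher by 1.69 ± 0.17, Hspa8 by 0.84 ± 0.15 and Dnajb1 by 0.95 ± 0.15. The scaled values of Hspa1a in KO retina were 126, 78.5 and 158, against 534, 479 and 517 in KO rods. Those of Hsp90aa1 were 31200, 32800 and 23200, against 102000, 78300 and 102000. For both genes the lowest KO rod library was above the highest KO retina library.

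Hsph1 was not called in the KO mice: 2480, 1560 and 2250 in rods and 1690, 1620 and 1270 in retina overlapped, with a difference of 0.43 ± 0.19 (limma, adjusted p = 0.0743). Leaving out KO rods replicate 2, which held the lowest Hsph1 value of the rod libraries, gave 0.64 (limma, adjusted p = 0.0113). That was the largest of the fits that left out each library in turn, which ran from 0.29 to 0.64 (limma, adjusted p from 0.0113 to 0.258). Hsp90ab1 (0.07 ± 0.2, adjusted p = 0.759) and Hsf1 (0.2 ± 0.22, adjusted p = 0.431) were not called either. Removing the GC trend raised Hsph1 to 0.77 and Hsf1 to 0.5, both then called, with adjusted p of 0.00138 and 0.00135, while the alternatives for Hsf1 ran up to 0.917 and for Hsph1 up to 0.621.

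**Figure D2:**
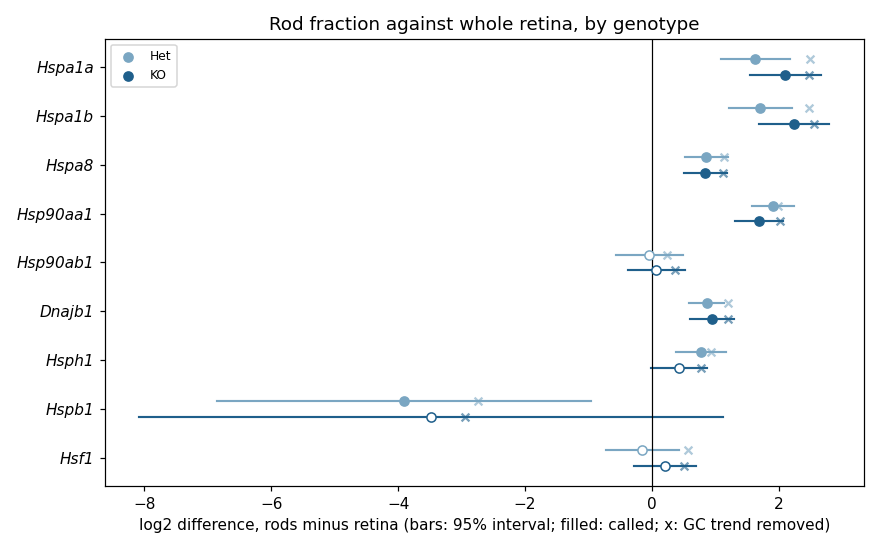
Log2 difference of each gene between rod TRAP and whole retina (horizontal axis), in Het and in KO libraries. Bars are 95% intervals, filled points are called, and crosses give the value with the GC trend removed; Hspa1a, Hspa1b, Hsp90aa1, Hspa8 and Dnajb1 lie above 0 in both genotypes and Hspb1 lies far below 0 with a wide interval.

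Hspb1, the small heat shock protein, was the member with the least in rods and the most scatter in retina. The deposited table listed it at 0, 7 and 1 in the Het rod libraries and at 19, 563 and 23 in Het retina. In the KO libraries it was at 3, 3 and 33 in rods and at 39, 29 and 1878 in retina. In each genotype 1 retina library therefore stood far above the other 2. Hspb1 was lower in Het rods, with a difference of -3.91 ± 1.26 on the log2 scale (limma, adjusted p = 0.0273), and in KO rods the difference was -3.48 ± 1.84 (adjusted p = 0.146), which moved to -1.57 without KO retina replicate 3. The Het call was lost with a pseudocount of 10 (-2.57, adjusted p = 0.11), with the GC trend removed and no block (-2.74, adjusted p = 0.0611), without a filter, in a fit of all 12 libraries, and on leaving out Het rods replicate 1 (adjusted p = 0.103) or replicate 3 (adjusted p = 0.068). Without any 1 of the Het retina libraries Hspb1 passed the filter on low values no longer and was not tested. When the fit blocked on the replicate number, the Het difference kept its call (limma, adjusted p = 9.8e-05, or 0.000135 with the GC trend also removed). The KO difference then passed (limma, adjusted p = 0.00121), but by the pairing rule given with the processing these numbers did not pair KO rods with KO retina. The blocked KO value is therefore only a description. Of the Hspb1 transcript, 47.3% of 75-base stretches also occur in the pseudogene Hsp25-ps1.

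Genes of the lens with signal were high in the 2 libraries where Hspb1 was high. Some of them were also high in Het retina replicate 3, where Hspb1 was not. The gamma crystallin Crygf, a lens fibre protein, was the gene most like Hspb1 of 10404 in its deviations from the group means (Pearson r = 0.97 over 12 libraries, a description). Its deposited values were 2, 311 and 9 in Het retina and 7, 1 and 5782 in KO retina, so the same 2 libraries were high. In rods Crygf was at 0, 3 and 0 in Het and at 0, 0 and 71 in KO, where Hspb1 was at 0, 7 and 1 and at 3, 3 and 33. Hsf4, the heat shock factor known for its role in lens, had 30, 162 and 39 in Het retina and 63, 41 and 252 in KO retina, with at most 2 in any rod library. Cryab, the alpha crystallin that is also a small heat shock protein, had 421, 36464 and 40299 in Het retina and 15225, 22435 and 116785 in KO retina, and so was also high in Het retina replicate 3, where Hspb1 was not. The summed lens share was 0.00104%, 1.73% and 1.69% in Het retina and 0.472%, 1.13% and 5.51% in KO retina. Crygf, Hsf4 and Cryab were not among the 12 genes of that sum, of which Lim2 was at 0 in every library and the other 11 were above 0 in every retina library. The part of lens RNA in the Hspb1 values was not tested. Without Het retina replicate 2 and KO retina replicate 3, an omission chosen after seeing the data, KO minus Het retina for Hspb1 was 0.63 in place of 1.02, and 0 members were called. Its direction rested on single libraries: it was -0.92 without KO retina replicate 3 alone and 2.56 without Het retina replicate 2 alone, and was called in neither case.

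**Figure D3:**
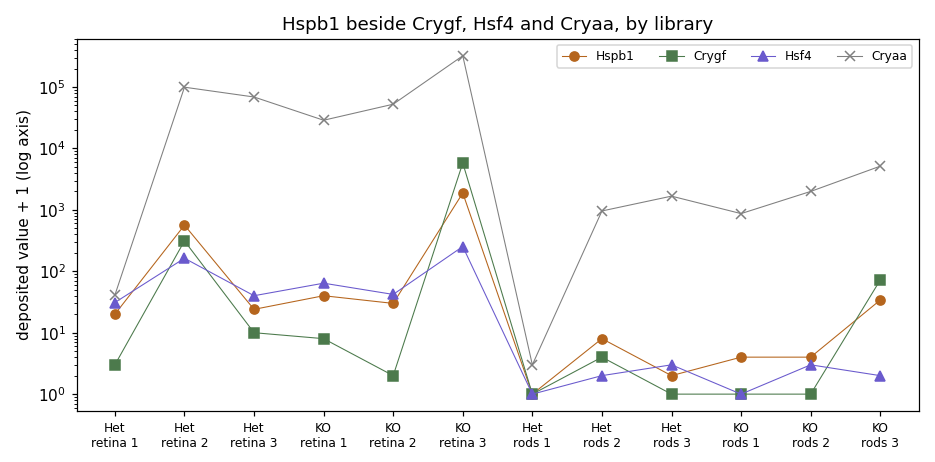
Deposited value plus 1 (log axis) of Hspb1, Crygf, Hsf4 and Cryaa in each of the 12 libraries, with lines to guide the eye. Hspb1 reaches 563 in Het retina replicate 2 and 1878 in KO retina replicate 3, the libraries where Crygf reaches 311 and 5782.

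KO rods were compared with Het rods to ask which messages on rod ribosomes changed with loss of the second Shp2 allele. Hspa1b, Dnajb1 and Hsf1 were higher in KO rods, and 0 members were lower, among 8 genes tested; Hspb1 was too low to test. Of 13039 genes, 11.3% were higher and 1.93% lower, and the groups did not overlap for 3 of the 8 members and for 44.3% of all genes. The median log2 difference of the 8 was 0.33, against -0.011 for all genes. With the GC trend of each library removed, 0 members were called and 1.37% of all genes were higher: Dnajb1 then stood at 0.35, under the size a call needs, Hspa1b at 0.22 and Hsf1 at -0.03. In a fit of all 12 libraries, which pools the spread of the 4 groups, the sizes were 0.82 for Hspa1b, 0.5 for Dnajb1 and 0.54 for Hsf1, and 0 were called (limma, adjusted p = 0.193, 0.193 and 0.229).

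Hspa1b had scaled values of 1070, 908 and 729 in KO rods and of 495, 639 and 408 in Het rods, so all KO libraries lay above all Het ones. The difference was 0.83 ± 0.19, a fold of 1.78 (limma, adjusted p = 0.0149). Without Het rods replicate 1 its adjusted p was 0.0733, and without KO rods replicate 2 it was 0.0607; over all alternatives the limma adjusted p ran from 0.000237 to 0.528, the last with the GC trend removed. Hspa1a, its near twin, had 534, 479 and 517 in KO rods and 442, 504 and 306 in Het rods, groups that overlapped (0.33 ± 0.16, adjusted p = 0.159). Hspa1a turned, once the GC trend was removed, to -0.34 ± 0.22, beside 0.22 for Hspa1b, and neither was called. Without that removal the pair, summed, was higher in KO rods by 0.63 (limma, adjusted p = 0.0276). The ratio of Hspa1b to Hspa1a was 2.01, 1.9 and 1.41 in KO rods and 1.12, 1.27 and 1.33 in Het rods, which did not overlap (exact two-sided permutation p = 0.1, the smallest possible). In retina the ratios were 1.7, 1.65 and 1.47 in KO and 0.885, 1.2 and 1.51 in Het, which overlapped (exact p = 0.2). The ratio was examined after the values had been seen.

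Dnajb1 had 2910, 2310 and 2400 in KO rods and 1750, 1890 and 1720 in Het rods, with no overlap. It was higher by 0.51 ± 0.1, a fold of 1.43 (limma, adjusted p = 0.00482), a size just above the 0.5 that a call needs. Its adjusted p stayed below 0.05 on leaving out each library in turn, between 0.00428 and 0.0231, but its size fell below the threshold without Het rods replicate 1 or 3 (0.5 and 0.49) and without KO rods replicate 1 (0.42). With the GC trend removed its difference of 0.35 ± 0.09 still had an adjusted p of 0.0311 (limma), and its adjusted p ran from 0.000185 to 0.193 over the alternatives. Hsf1 had 336, 452 and 334 in KO rods and 224, 301 and 244 in Het rods, with no overlap, and was higher by 0.55 ± 0.16 (adjusted p = 0.0262). Without Het rods replicate 1 or 3, or without KO rods replicate 2, its adjusted p was 0.103, 0.0791 and 0.0946. With the GC trend removed it was -0.03 ± 0.11 (limma, adjusted p = 0.912).

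The remaining members passed no test between KO and Het rods. Hspa8 had 41300, 28900 and 37500 in KO rods and 31200, 32700 and 23100 in Het rods (0.32 ± 0.17, 95% interval -0.09 to 0.72). Hsp90ab1 had 13200, 8330 and 12800 against 9380, 12100 and 6300 (0.34 ± 0.32, interval -0.5 to 1.18). Hsp90aa1 had 102000, 78300 and 102000 against 110000, 105000 and 82200 (-0.06 ± 0.13, interval -0.37 to 0.24). Hsph1 had 2480, 1560 and 2250 against 2560, 2790 and 1820 (-0.18 ± 0.22, interval -0.73 to 0.36). The intervals of Hspa8, Hsp90ab1 and Hsph1 reach past 0.5 in size and leave such differences undecided.

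GC content moved with genotype in the rod libraries. The median log2 deviation of the 10% of genes with the highest GC content minus that of the lowest 10% was 0.42, 0.76 and 0.28 in the KO rod libraries, above the -0.81, -0.23 and -0.42 of the Het ones, with no overlap. In retina it was -0.24, 0.86 and -0.84 in Het and 0.01, -0.63 and 0.9 in KO. Among the members, GC content was 61.7% in Hspb1, 58.9% in Hspa1a, 58.1% in Hspa1b and 57.8% in Hsf1, and lowest in Hsph1 at 47.4% and Hsp90aa1 at 43.7%. The median over the genes of the rods was 49.6%. Of the genes called in KO rods, 85.4% were higher with TMM factors, 67.3% with total scaling and 51.9% with the GC trend removed. With total scaling Hspa1b (0.75) remained called, whereas Dnajb1 (0.43) and Hsf1 (0.47) fell below the size threshold.

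**Figure D4:**
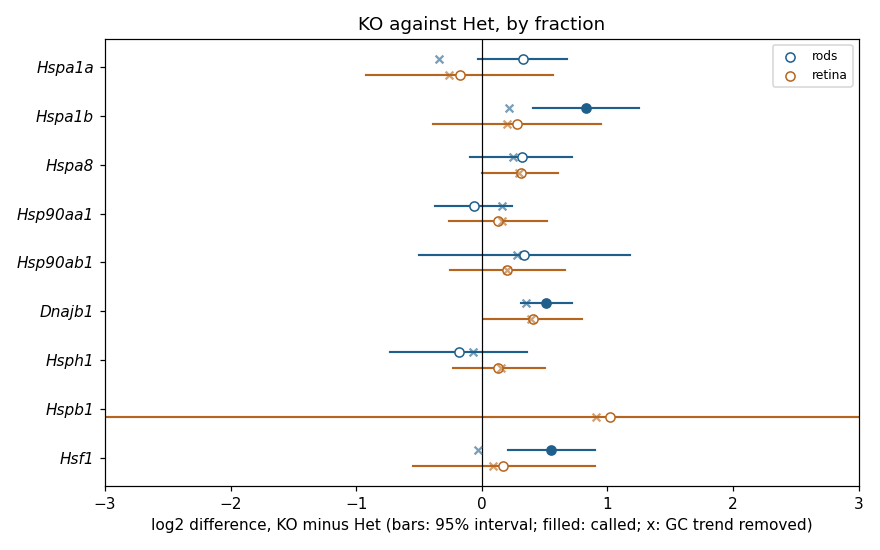
Log2 difference of each gene between KO and Het (horizontal axis), in rods and in retina. Bars are 95% intervals, filled points are called and crosses give the value with the GC trend removed; Hspb1 was not tested in rods, and its interval in retina runs past both ends of the axis.

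In whole retina, 0 of the 9 members were called between KO and Het, and 0 of 16821 genes were, 0% of those tested; 139 genes had an unadjusted limma p below 0.05. The groups did not overlap for 2 members, Hspa8 and Dnajb1, and for 3.51% of all genes. Hspa8 had 20300, 18600 and 20100 in KO retina and 15900, 16800 and 15000 in Het retina, a difference of 0.31 ± 0.13 (limma, unadjusted p = 0.0473, adjusted p = 1). Dnajb1 had 1240, 1150 and 1550 against 986, 1070 and 894, a difference of 0.41 ± 0.17 (limma, unadjusted p = 0.0423, adjusted p = 1). They were 0.3 and 0.39 with the GC trend removed. Hspa1b had 214, 130 and 233 in KO retina (126, 191 and 151 in Het), Hsp90ab1 had 10000, 9470 and 12500 (8610, 11400 and 7880 in Het) and Hsf1 had 305, 252 and 423 (273, 410 and 203 in Het). These and the other members differed by between -0.17 (Hspa1a) and 1.02 (Hspb1, which ran from -0.92 to 2.56 on leaving out each library), with groups that overlapped. The interaction, the KO difference in rods minus that in retina, called 0 of 16855 genes (0%) and 0 members, with 475 genes at an unadjusted p below 0.05. It was 0.54 ± 0.35 for Hspa1b, 0.49 ± 0.37 for Hspa1a, 0.37 ± 0.36 for Hsf1 and 0.09 ± 0.19 for Dnajb1, so a difference of the KO effect between the fractions was not shown for any member.

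The partners of these chaperones were described from 9 lists of 70 genes in all, outside the 9 members. These lists, and that of the early response genes below, were chosen with earlier results of these data known. Their shares beside those of all genes are therefore a description. In Het rods against Het retina, 33 of 66 tested were higher and 7 lower, that is 50% and 10.6%, beside 26.5% and 34.7% of all genes, with a median log2 difference of 0.58. Under total scaling 16 were higher and 9 lower, beside 1168 and 7399 of the 15917 genes. Removing the GC trend gave 47 higher and 7 lower, beside 6590 and 5033 of the 15917 genes. Among the higher ones were 10 of 11 HSP90 co-chaperones and 6 of 6 prefoldin genes. Genes with no known GC content stayed in these counts uncorrected. All 8 genes of the TRiC chaperonin, the ring that folds actin, tubulin and other cytosolic proteins, were higher, with a median of 1.1 and Cct4 at 1.41. Of the organelle counterparts, 5 of 6 were higher, among them Hspa5, the HSP70 of the endoplasmic reticulum (1.22), Hsp90b1, its HSP90 (1.26), and Hspa9, the mitochondrial HSP70 (1.32). Of 11 HSP90 co-chaperones 6 were higher and 0 lower, with Stip1, which links HSP70 to HSP90, at 0.86, Ptges3 (p23) at 0.94 and Fkbp4 at 0.78. Under total scaling no HSP90 co-chaperone was called, with Stip1 at 0.35, Ptges3 at 0.43 and Fkbp4 at 0.27. Some TRiC genes, Cct5 (0.49) among them, also lost their calls there. Cct4 (0.9), Hspa5 (0.7), Hsp90b1 (0.75) and Hspa9 (0.81) kept theirs.

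Among 10 J-domain proteins, 6 were higher and 1, Dnajb5, was lower (-1.16). Dnajc5, the synaptic vesicle protein with the highest level in this list, was higher by 0.91. The HSP110 relatives Hspa4l (1.31) and Hspa4 (0.79) were higher, whereas Hspa12a (-2.79), Hspa12b (-2.11) and Hspa1l (-1.82) were lower. Bag3, an HSP70 exchange factor that works with small heat shock proteins, was lower, at -4.31, and so was its partner Hspb8, at -4.72. St13, an HSP70 co-factor, was higher by 0.96 and Bag5 by 0.66. Prefoldin had 2 of 6 higher, Vbp1 (1.23) and Pfdn4 (0.61). Of the small heat shock proteins 4 were tested: Hspb6 was higher by 1.27, Hspb8 lower, and Cryab (-5.91, limma, adjusted p = 0.149) passed no test, although it did with the replicate number as a block (adjusted p = 1.59e-08). In the heat shock factor list 1 of 4 was lower, Hsf4 (-4.16), and Hsf2 (0.19) and Hsbp1 (0.33) were not called. Hspa12b, Bag3, Hspb8 and Hsf4 were too low in rods to be tested between KO and Het rods. They passed the filter on low values here mainly through the retina libraries, so a higher call in rods was hardly open to them. The counts of lower partners include them. In the KO libraries the same lists gave 38 of 66 higher and 8 lower, that is 57.6% and 12.1%, beside 27.1% and 35.1% of all genes. They gave 13 and 16 under total scaling, beside 1144 and 7846 of the 15858 genes, and 48 and 7 with the GC trend removed, beside 6717 and 4985.

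Between KO and Het rods, 7 of 62 tested partners were higher and 1 was lower, 11.3% and 1.61%, beside 11.3% and 1.93% of all genes: the partners were called about as often as genes at large. Among those higher were the HSP70 exchange factor Hspbp1 (1.54), Bag6 (0.83) from the same list, and the ubiquitin ligase Stub1 or CHIP (0.64). The HSP90 co-chaperones Unc45a (0.96) and Cdc37 (0.62) and prefoldin Pfdn6 (0.51) were higher too. Hspb11, a part of the ciliary transport machinery that its family name does not show, was lower (-0.55). With the GC trend removed, 2 were higher, Hspbp1 (0.81, limma, adjusted p = 0.0225) and Cdc37 (0.6, adjusted p = 0.0191), 1 was lower, Bag1 (-0.55, adjusted p = 0.00369), and Stub1 turned to -0.15. In the fit of all 12 libraries 0 were called. No J-domain protein, TRiC subunit, organelle counterpart or HSP70 relative was called, and Hspa5 (0.14), Hspa4l (-0.12) and Dnajc5 (-0.06) lay near 0. Some genes of the first 3 lists had an adjusted p below 0.05 and missed only the size threshold. These were lower in KO rods apart from Cct5, which was higher (0.31, limma, adjusted p = 0.00994). Of the early response genes, transcribed within minutes of many stimuli, 6 of 9 were higher in KO rods, with Egr1 at 2.75, Junb at 2.22 and Ier2 at 1.62; with the replicate block the call of Egr1 was lost (limma, adjusted p = 0.0681). With the GC trend removed 3 of these 9 were higher, Jun (0.53) and Ier2 (0.82) among them. In retina 0 of the 66 partners tested and 0 of the 9 early response genes were called between KO and Het.

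**Figure D5:**
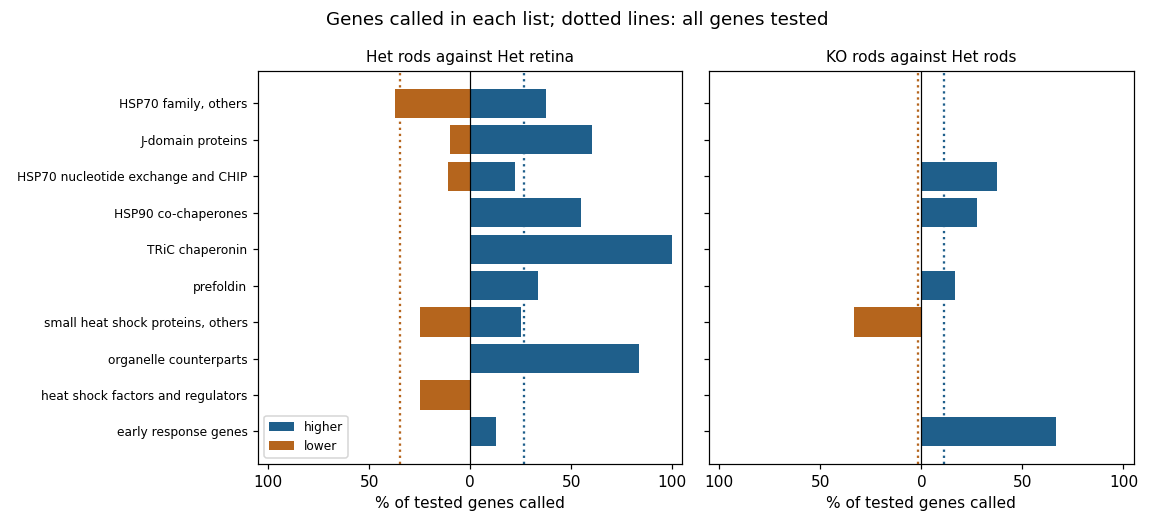
Share of the tested genes of each list called higher (right of 0) or lower (left of 0), in Het rods against Het retina and in KO rods against Het rods. Dotted lines give the shares over all genes tested, 26.5% and 34.7% in the first panel and 11.3% and 1.93% in the second. With TMM factors, all 8 TRiC genes are higher in Het rods.

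Within groups, some members moved together. Over the deviations of the 12 libraries from their group means, Hsp90aa1 and Hsph1, the pair with the lowest GC content, had a Pearson r of 0.9, and Hspa8 moved with Hsp90ab1 (0.91) and Hsph1 (0.83). Hsf1 moved against Hsp90aa1 (-0.62), and with Hspb1 (0.72) and Hspa1a (0.7). These are descriptions over 12 libraries, in which all genes of a library share its depth and its GC trend, and both differed between libraries. The genes most like Hsp90aa1 were its pseudogene Gm12346 (0.992), Ahi1 (0.977) and Cand1 (0.973), and those most like Hsph1 were Gm5844 (0.987), Hspa5 (0.979) and Gm42732 (0.943). For Hspa8 they were Ctnnd2 (0.941), Ebf1 (0.94) and Gm15459 (0.938), and for Hsp90ab1 Gm15459 (0.94), Trim17 (0.918) and Ctnnd2 (0.917). For Hspa1a they were Gm8797 (0.984), Herpud1 (0.956) and Tnip1 (0.954), and for Hspa1b Bcl6 (0.922), Tmed1 (0.903) and Amotl2 (0.897). Dnajb1 was followed by Dll1 (0.953), Rcc1 (0.921) and Cnppd1 (0.906), Hsf1 by Scaf1 (0.996), Tomm40 (0.994) and Rrp7a (0.994), and Hspb1 after Crygf by Ccdc180 (0.951) and Glis2 (0.949).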

How the data were processed

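RNA sequencing values (poly(A)-primed SMART-Seq libraries of flash-frozen, cycloheximide-treated tissue) were taken from 12 libraries, grouped by the genotype and tissue of each sample record, with replicate numbers from the titles. The authors deposited a signal per gene, read counts scaled to nearly equal totals and rounded; this was inferred from the values. The submitters' processing notes name CASAVA 1.8.2, HISAT2, DESeq2, edgeR and the build GRCm39, with no role for each. The planned count model was replaced by limma 3.58.1 in R 4.3.3, because the values are not counts. Values were scaled by trimmed-mean factors (30% of M and 5% of A trimmed, each library in turn as reference), a pseudocount of 2 was added, and log2 values were fitted with the trend and robust options over the libraries compared. Genes needed a scaled value of 10 in 3 libraries and a sum of 15. Scripts were tested on simulated data.

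Same-numbered libraries deviated together in Het rods and Het retina (r = 0.707, 0.619 and 0.294) and, weakly, in KO and Het rods (0.248, 0.104 and 0.167), so those numbers pair libraries by the rule that every r exceed 0.1; the pairing comes from the data, since no record states it. GC content and 75-base stretches came from the longest transcript in GENCODE vM21 (GRCm38), with GC known for at least 98.4% of tested genes; the trend was removed by lowess with a span of 0.3. No column (0) belonged to other samples. The 9 members and all lists were chosen with earlier results of these data known. Genes named are every member, from each list its 3 highest in level and 3 largest called differences, the 3 genes most like each member (mean of at least 100), and Ptpn11. Crygf is named by that rule; Cryaa, the ratios and the lens comparison were chosen after values were seen. Some results that the rule would name are not reported here.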

Additional observations from a re-analysis of the deposited data

How the results depend on the processing

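Alternatives were library-total and median-ratio scaling, pseudocounts of 0.5 and 10, no filter, all 12 libraries in one fit, each library left out, the replicate block, the GC trend removed with and without the block, the inducible pair summed and, for rods, rod-depleted genes removed. In KO against Het rods, 3 members were higher; 1 was with total scaling, 0 with the GC trend removed, with or without the block, 0 in the fit of 12 libraries, and 0 to 3 on leaving out each library. Hsf1 turned to -0.03 and Stub1 to -0.15 with the GC trend removed, with or without the block. In Het rods against Het retina, 6 were higher and 1 lower; 3 were higher with total scaling, 0 were lower with a pseudocount of 10, without the filter, with the GC trend removed (1 with the block as well) and in the fit of 12 libraries, and 0 or 1 on leaving out each library. Hsf1 turned to 0.57 with the GC trend removed, with or without the block. In KO rods against KO retina, 5 were higher and 0 lower; 3 were higher with total scaling, Bag1 turned to -0.54 there, and 1, Hspb1, was lower with the replicate block, alone or with the GC trend removed. The block changed no other member's call. By the rule that every r exceed 0.1, its numbers did not pair KO with Het retina (r = 0.576, -0.739 and -0.31). They did not pair KO rods with KO retina either (0.546, -0.029 and 0.225). Yet the lens share rose in the same replicate order in both KO fractions, 0.472%, 1.13% and 5.51% in retina and 0.0122%, 0.0249% and 0.0883% in rods. Shares of other cell types did not all do so, and whether the KO numbers pair was not settled. 0 members were called in retina or in the interaction under any alternative. Median-ratio scaling changed no member's call. The cause of these changes was not tested. In KO rods 178 genes were higher and 165 lower with the GC trend removed, against 1472 and 252.

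With 3 libraries a group, differences of members with wide intervals stay undecided. Depth limits Hspb1 in rods, and reads shared with near-identical genes limit Hspa1a, Hspa1b, Hspa8 and Hsp90aa1.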

Other observations

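Values of Egr1, the early response gene with the largest difference, stood beside those of the heat shock genes. Its scaled values were 1190, 668 and 528 in KO rods and 90.9, 211 and 69.3 in Het rods, with no overlap, and 733, 381 and 341 in KO retina against 99.1, 219 and 87.5 in Het retina, again with no overlap. In rods the difference was 2.75 ± 0.55 (limma, adjusted p = 0.0279, or 0.0681 with the replicate block), and with the GC trend removed 2.21 (adjusted p = 0.0994). In retina it was 1.87 ± 0.42 with an adjusted p of 1, and the difference between fractions was 0.88 ± 0.66 (adjusted p = 0.867). KO replicate 1 had the highest Egr1 of the KO libraries in both fractions, and in rods also the highest Hspa1b (1070) and Dnajb1 (2910). In retina this did not hold: KO replicate 3 had the highest Hspa1b (233) and Dnajb1 (1550) of the KO libraries and the lowest Egr1 (341). The ratio of Hspa8 to the summed inducible pair was 25.7, 20.8 and 30.1 in KO rods and 33.3, 28.6 and 32.4 in Het rods, which overlapped, against 48.1 to 59.9 in Het retina.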
